A study of Arabis alpina with 9 samples.

Results

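The shoot apex of 3-week-old wild-type *Arabis alpina* is described here through its 3 RNA-seq samples, out of 9 in the series. The members were taken by genotype label alone: the 3 samples of the Pajares accession without a mutation, called wild-type A, B and C after the letters of the deposited table. *A. alpina* is a perennial relative of Arabidopsis that flowers only after prolonged cold, and at 3 weeks its plants are juvenile and vegetative. The plants grew for 3 weeks in long days of 16 h light and 8 h dark, and the apices were dissected before RNA extraction, so each sample mixes the meristem with young leaves and stem tissue. The other 6 samples, grown and sampled in the same way, are 3 of *pep1-1* and 3 of *pep2* (called *pep2-1* in the study) in the same accession. *pep1-1* is mutated in the ortholog of the floral repressor *FLC*, and *pep2* in the ortholog of *AP2*. Plants homozygous for *pep2* were identified with a marker among segregating progeny. The samples of a genotype are separate biological replicates by the study's methods. Nothing in the labels ties the table's letters to the numbered replicates. Bulk tissue cannot tell fewer cells of a type from less RNA per cell, which holds for every level below.

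The shoot apical meristem keeps a small pool of stem cells at its centre and forms leaves at its flanks. In Arabidopsis, *WUSCHEL* in the organizing centre and the peptide *CLAVATA3* with its receptors balance the stem cell pool, and homeobox genes of the *KNOX* class such as *STM* keep cells undifferentiated. Leaf primordia switch *KNOX* genes off through *AS1* and gain an upper and a lower side through class III HD-ZIP, *KANADI* and *YABBY* factors. Flowering begins when signals such as FT, *SOC1* and SPL proteins overcome repressors such as *FLC*, *SVP*, *TFL1* and the AP2 family and switch on *LFY* and *AP1*. Genes are named by their Arabidopsis ortholog with the prefix *Aa*, and closely related copies (light-harvesting, *MAF*, lipid-transfer and ribosomal genes) are less certain, since reads of near-identical genes may have been split between them. No sequences are printed, since the values come from a table of genes. The ortholog of *FLC*, PEP1, was not analysed here.

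The 3 wild-type samples had 13924783, 23829973 and 13795485 reads in genes and 24653 to 24759 genes with at least 1 read, close to the 24417 to 24807 of the 6 mutant samples. Levels are given on 2 scales. FPKM, fragments per kilobase of gene model scaled to the depth of the library, is the authors' value over the 3 wild-type samples, carries no error, and allows genes to be compared with each other. CPM, with TMM factors, is read counts scaled to a common library size, given for samples A, B and C in that order, and shows the spread for a gene. A gene with no read in the 51550241 wild-type reads can have a level of up to 0.0582 CPM, the limit that a count of 0 allows (3 reads, counting error only).

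Of 30690 genes in the table, 20770 (67.7%) were expressed at 1 FPKM or more, 3194 (10.4%) were low at 0.1 to 1 FPKM, 1851 (6.03%) were near silent with reads but under 0.1 FPKM, and 4875 (15.9%) had no read. The median was 5.34 FPKM over all genes and 12.8 FPKM over the expressed ones. Genes with an Arabidopsis ortholog were expressed more often (15952 of 19544, 81.6%) than genes without (4818 of 11146, 43.2%), and 3617 genes without an ortholog (32.5%) had no read, against 1258 with an ortholog (6.44%). On the 8 chromosomes 67.0% to 73.2% of genes were expressed, and on unplaced scaffolds 46.5%. The 50 highest genes held 14.1% of all FPKM and the 500 highest 41.6%.

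The highest level per length belonged to AALP_AA3G369400 (chromosome 3, 27592804 to 27592962), whose ortholog is the plastid gene for ribosomal protein L32, at 17231 FPKM. Its reads were far fewer than that rank implies, with 236, 238 and 269 CPM, rank 619 by CPM. Whether these reads came from this locus or from the plastid gene was not tested. The gene model spans 159 bases and the reads were 100 bases long, so the length behind its FPKM is only about 14.4 bases. The next ranks were held by genes that are high on both scales. AALP_AA7G051900 (chromosome 7, 4376699 to 4377353) and AALP_AA7G052100 (chromosome 7, 4380212 to 4380758) encode small proteins of the lipid-transfer and seed-storage superfamily and lie near each other. They reached 12208 and 10392 FPKM. AALP_AA7G051900 had 5248, 5882 and 5661 CPM, the most reads of any gene, and another such gene on this chromosome, AALP_AA7G052900 (chromosome 7, 4481982 to 4482746), had 2946 FPKM.

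The rest of the 20 highest annotated genes fall into a few roles. Photosynthesis was represented by *AaLHCB1.3*, a light-harvesting protein of photosystem II, at 3879.8 FPKM and by *AaPSBR* at 2334 FPKM. Translation was represented by ribosomal protein S15 (2264 FPKM) and by a zinc-binding ribosomal protein (2170.4 FPKM). Stress and redox proteins included the peroxidase AALP_AA7G046800 (2365 FPKM), the glutathione transferases *AaGSTF9* (2067 FPKM) and *AaGSTU20* (2053 FPKM), and the metal-binding metallothionein *AaMT2A* (1794 FPKM). *AaBGLU18*, a beta-glucosidase of the endoplasmic reticulum bodies, had 3103 FPKM and 4443, 5968 and 5253 CPM, the second most reads. The clock-regulated RNA-binding protein *AaCCR2* (3482 FPKM), a vacuolar calcium-binding protein (2696 FPKM), the translationally controlled tumour protein (2271 FPKM), a defensin-like protein (2257 FPKM), a glycine-rich protein (2000.0 FPKM) and the vacuolar aquaporin *AaTIP2* (1837 FPKM) made up most of the rest. AALP_AA7G206500 (2484 FPKM) has 3 Arabidopsis orthologs and no description in the table. Of the 50 highest genes, 9 had no ortholog.

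By description, 255 genes encode ribosomal proteins, 248 of them expressed, with a median of 164 FPKM. They took 6.23% ± 0.19 of wild-type reads (SD, n = 3), against 5.80% to 6.44% in the 6 mutant samples. The 71 genes described as photosystem or light-harvesting proteins had a median of 123 FPKM and took 1.97%, 1.46% and 1.39% of reads in wild-type A, B and C, so sample A stood above the other two. The mutant samples covered 1.54% to 2.14%, and wild-type B and C lay under all of them. Of the listed photosynthesis genes all 40 in the table were expressed, with a median of 365 FPKM, and 3 of the 40 differed by a factor of 2 or more among the wild-type samples, against 1.97% of all genes of at least 5 CPM. The lipid-transfer and seed-storage superfamily held 80 genes, of which 39 were expressed and 22 had no read. A few of its genes carried it to 1.42% ± 0.069 of reads (SD, n = 3), against 1.13% to 1.41% in the mutant samples. Histones (60 genes, 51 expressed) took 0.544% ± 0.0045 of wild-type reads. These descriptions were searched by keyword, so the groups are those the annotation text forms.

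The samples carried the markers of a vegetative apex. Of 21 meristem genes found in the table, 18 were expressed, with a median of 21.6 FPKM. The class I *KNOX* genes were all expressed: *AaKNAT1*, the ortholog of *BREVIPEDICELLUS*, had 33.2 FPKM, *AaSTM* (AALP_AA2G018400, chromosome 2, 1763407 to 1766785) 26.7 FPKM, *AaKNAT2* 23.9 FPKM and *AaKNAT6* 13.6 FPKM. *AaSTM* had 38, 33.7 and 27.3 CPM, its highest value in sample A and its lowest in C. Their homeodomain partners *AaATH1* and *AaBLH9* (the ortholog of *PENNYWISE*) had 32.1 and 23.5 FPKM. *AaATH1* was steady, with 36.6, 37 and 36.8 CPM.

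All listed receptors of the CLAVATA pathway were expressed, at levels on both sides of the median of expressed genes (12.8 FPKM), and their ligand was low. The receptor kinase *AaBAM1* was the highest meristem gene at 152 FPKM and 499, 498 and 478 CPM, followed by *AaERECTA*, a receptor kinase of stem growth, at 125 FPKM. *AaBAM3* had 28.8 FPKM, *AaCLV1* 28, *AaBAM2* 19, *AaCLV2* 10.3 and *AaRPK2* 9.8 FPKM. *AaCLV3*, the stem cell peptide, had 0, 2 and 1 reads, 0.204 FPKM. *AaWUS* (AALP_AA3G339600, chromosome 3, 25327276 to 25329240) had no read in the wild type. In the mutants it had a mean of 0.101 CPM in *pep1-1* and no read in *pep2*. The *HAIRY MERISTEM* genes, which encode partners of WUS in Arabidopsis, had 25, 21.6 and 15.2 FPKM for *AaHAM1*, *AaHAM2* and *AaHAM3*. *AaDRN* had 5.33 FPKM, and its relative *AaDRNL*, which marks founder cells of organs, was low at 0.766 FPKM.

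**Figure D1:**
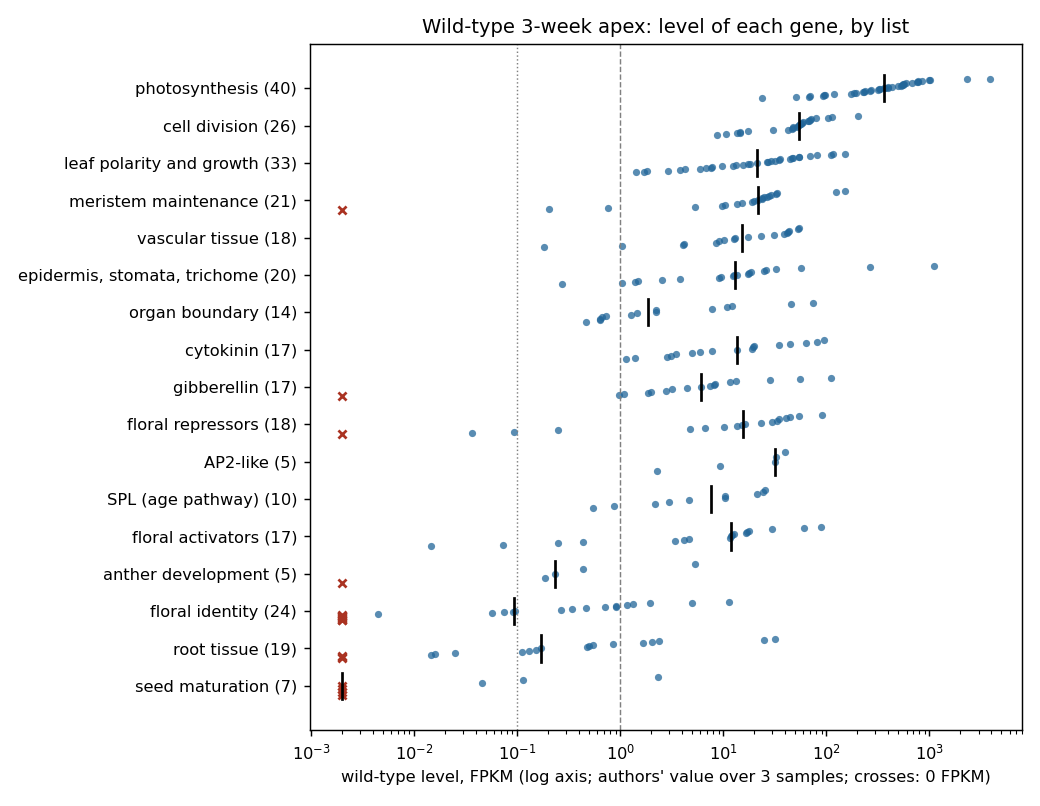
Wild-type level of each gene in FPKM on a log axis (the authors' value over 3 samples), with 1 row of points per gene list, the number of genes in brackets and a black bar at the list median. Crosses are genes at 0 FPKM and the lines mark 0.1 and 1 FPKM. All 40 photosynthesis, 26 cell division and 33 leaf genes lie above 1 FPKM, while 13 of 24 floral identity genes lie under 0.1 FPKM.

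Organ boundary genes, which separate primordia from the meristem, were lower: 9 of 14 were expressed, 5 were low and none was near silent, with a median of 1.84 FPKM. *AaLSH4* (74.9 FPKM) and *AaLSH3* (45.7 FPKM), boundary genes of the ALOG family, led the list. *AaBOP1* (12 FPKM) and *AaBOP2* (11 FPKM), which pattern the leaf base, and *AaLOF1* (7.86 FPKM) followed. The NAC factors *AaCUC2* and *AaCUC3* had 2.21 and 1.47 FPKM. *AaCUC1* had 0.667 FPKM but 4.01, 3.93 and 3.79 CPM, more reads than *AaCUC2* with 2.4, 1.88 and 2.39 CPM. The *AaCUC1* model spans 6006 bases and its FPKM was computed over about 5862 of them, so its low FPKM goes with a long model. *AaLAS*, *AaRAX3* and *AaRAX1*, regulators of axillary meristems, had 0.722, 0.638 and 0.469 FPKM.

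All 33 leaf polarity and growth genes in the table were expressed, with a median of 21.3 FPKM. *AaAS1*, which keeps *KNOX* genes off in leaves, was highest at 151 FPKM and 269.7, 281 and 264 CPM. The growth promoters *AaGIF1* (116 FPKM) and *AaANT* (109.9 FPKM) followed, then the lower-side factor *AaFIL* (81.3 FPKM) and the class III HD-ZIP factor *AaCNA* (69.8 FPKM). Its upper-side relatives *AaPHV*, *AaPHB* and *AaREV* had 34.4, 31.8 and 28.8 FPKM. They spread little over the samples, with 86.7, 89.8 and 89.5 CPM for *AaPHB*. The lowest of the list were *AaAS2*, partner of AS1, at 1.44 FPKM, *AaAIL6* at 1.71 FPKM and the blade gene *AaPRS* at 1.82 FPKM. *AaAIL6* had 7.87, 7.2 and 7.86 CPM over a model of 4624 bases.

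Dividing, epidermal and vascular tissues were also marked. All 26 cell division genes were expressed (median 53.9 FPKM), led by the replication clamp *AaPCNA1* (202 FPKM), the cytokinesis syntaxin *AaKNOLLE* (113 FPKM) and topoisomerase *AaTOP2* (79.4 FPKM). Of 20 epidermal genes 19 were expressed. *AaLTP1*, a lipid transfer protein of the epidermis, had 1112 FPKM, the cuticle enzyme *AaFDH* 266 FPKM, *AaTTG1* 56.8 and the trichome regulators *AaGL3* and *AaGL1* 32.1 and 24.8 FPKM. In the stomatal lineage, *AaSPCH*, which starts it, had 12.7 FPKM, *AaMUTE* 1.5 FPKM and *AaFAMA*, which ends it, 0.275 FPKM. Vascular genes were expressed in 17 of 18 cases. The xylem proteases *AaXCP1* and *AaXCP2* (54.8 and 42.4 FPKM) and the cambial receptor *AaPXY* (52.7 FPKM) led, and *AaVND7*, a switch for vessel formation, was low (0.182 FPKM).

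Most markers of root and seed lay under 1 FPKM. Of 19 root genes 5 were expressed, 8 were low, 3 near silent and 3 without a read, and summed over the list they gave 117 to 120 CPM in the wild-type samples, against 114 to 136 CPM in the mutants. Most of that came from *AaSHR* (56.9, 61.2 and 51.4 CPM) and *AaSCR* (50.8, 48.9 and 53.5 CPM), which in Arabidopsis also act in leaves. Then came *AaWOX5* (2.38 FPKM), *AaSMB* (2.06 FPKM) and the iron transporter *AaIRT1* (1.65 FPKM). *AaPLT2* and *AaEXP7* had no read and *AaPLT1* had 1 read. Of 7 genes of seed maturation 1 was low, 1 near silent and 1 expressed, a cruciferin ortholog of *CRA1* at 2.32 FPKM, and 4 had no read, among them *AaFUS3*, *AaABI3* and the oleosin *AaOLEO1*.

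Most floral repressors were expressed, 14 of 18 in the table, with a median of 15.7 FPKM. The MADS-box repressor *AaSVP* (AALP_AA6G290200, chromosome 6, 30277716 to 30282040) was highest at 90.5 FPKM and 58.7, 43.1 and 42.2 CPM. *AaTFL1* (AALP_AA8G031100, chromosome 8, 1918292 to 1919406), which keeps meristems vegetative, had 53.8 FPKM and 12.8, 20.8 and 20.6 CPM, lowest in sample A. Some relatives of *FLC* were expressed, *AaMAF3* (40.6 FPKM) and *AaFLM* (29.8 FPKM), while *AaMAF4* next to them on chromosome 8 had 2 reads. *AaTEM1*, a repressor of *FT*, had 35 FPKM. It was the only repressor of at least 5 CPM whose samples differed by a factor of 2 or more, with 14.9, 34 and 40.3 CPM, low in sample A. Chromatin repressors of the Polycomb group were all expressed, from *AaEMF2* (44.7 FPKM) and *AaCLF* (33.4 FPKM) to *AaEMF1* (4.71 FPKM), and *AaFRI*, the activator of *FLC*, had 6.65 FPKM. *AaBFT* had no read and *AaATC*, the other relative of *TFL1* here, had 1 read.

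All 5 *AP2*-like genes in the table were expressed. PEP2 itself (AALP_AA7G245300, chromosome 7, 26841956 to 26844520), the *AP2* ortholog, had 39.9 FPKM and 67.5, 54.8 and 57.9 CPM. It was followed by *AaTOE1* (32.6 FPKM) and *AaTOE2* (32.1 FPKM), then *AaSMZ* (9.22 FPKM) and *AaTOE3* (2.26 FPKM). Genes of this family encode repressors of flowering and are targets of the microRNA that rises with age in Arabidopsis. *AaTOE1* spread most, with 46.2, 30.4 and 28.3 CPM, highest in sample A. *AaSMZ* had 9.47, 7.4 and 6.6 CPM in the wild type, which lay above *pep1-1* (3.59, 2.81 and 2.42 CPM) and below *pep2* (14.3, 15.3 and 15.8 CPM) without overlap. None of the 5 was called between the wild type and the mean of the mutants, where opposite differences such as those of *AaSMZ* offset each other.

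The *SPL* genes, targets of a microRNA of the juvenile phase and promoters of the adult phase, were expressed in 8 of 10 cases (median 7.55 FPKM). *AaSPL13* (25.5 FPKM), *AaSPL2* (24.4 FPKM) and *AaSPL3* (21.3 FPKM) led, and *AaSPL9* had 10.5 FPKM and *AaSPL6* 10.4 FPKM. *AaSPL15* (2.2 FPKM), *AaSPL4* (0.864 FPKM) and *AaSPL5* (0.539 FPKM) were the lowest of the 10. *AaSPL3* is a short gene with few reads (2.48, 5.07 and 5.05 CPM), so its FPKM rank does not carry over to CPM, where *AaSPL13* had 53.8, 55.6 and 60.3. *AaSPL9* had 17.6, 13.3 and 14.3 CPM. The deposited table holds gene transcripts, and microRNAs were not measured here.

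Of 17 floral activators found, 13 were expressed (median 11.8 FPKM). The autonomous pathway genes *AaFVE* (88.7 FPKM), *AaFY* (29.9 FPKM), *AaFLD* (17.1 FPKM), *AaFPA* (12.6 FPKM), *AaFCA* (12.2 FPKM) and *AaLD* (11.8 FPKM) and the vernalization genes *AaVRN1* (60.5 FPKM), *AaVRN2* (17.7 FPKM) and *AaVRN5* (11.6 FPKM) made up 9 of the 13. *AaVIN3*, which is induced by cold in Arabidopsis, had 0.247 FPKM in these plants that had no cold. The MADS-box gene *AaAGL19* had 16.5 FPKM and 6.85, 7.65 and 8.63 CPM. Its relative *AaSOC1* (AALP_AA4G246000, chromosome 4, 21868516 to 21871077) had 3.42 FPKM and 1.6, 1.51 and 1.54 CPM, nearly equal in the 3 samples. *AaFD* and *AaCO* had 4.62 and 4.12 FPKM. *AaFT*, the mobile signal made in leaves, had 1 read (0.0732 FPKM) and *AaAGL71* 3 reads.

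**Figure D2:**
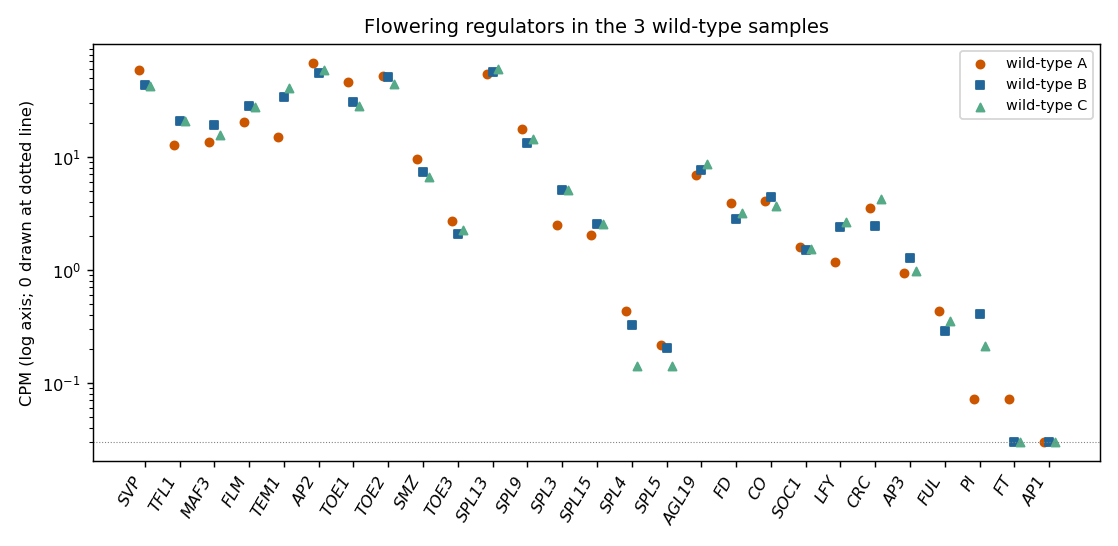
CPM of 27 flowering regulators on a log axis in wild-type A, B and C (0 drawn at the dotted line). Repressors on the left lie mostly above 10 CPM, *AaSOC1* near 1.5 CPM, and *AaAP1* has no read in any sample.

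Genes of floral meristem and organ identity were mostly silent. Of 24 in the table, 5 were expressed, 6 were low, 5 near silent and 8 had no read, with a median of 0.0937 FPKM against 5.34 FPKM over all genes. *AaAP1* (AALP_AA2G117200, chromosome 2, 17729660 to 17733796), which specifies floral meristems, had no read, nor had *AaAG*, *AaSEP3*, *AaSUP*, *AaAGL13*, *AaINO*, *AaHEC2* and *AaSPOROCYTELESS*. Near silent were *AaPUCHI* with 1, 3 and 1 reads, *AaSHP1* with 2, 9 and 7, *AaSHP2* with 3, 1 and 4, *AaSEP1* with 1, 1 and 2 and *AaSTK* with 1, 0 and 0 reads in samples A, B and C. The 5 expressed genes were *AaLMI1* (11.4 FPKM), a homeobox gene that also acts in leaves, *AaCRC* (5.0 FPKM), *AaLFY* (1.96 FPKM), *AaAP3* (1.34 FPKM) and *AaFUL* (1.17 FPKM). *AaLFY* had 1.17, 2.41 and 2.67 CPM, lowest in sample A, and *AaFUL* 0.437, 0.286 and 0.351 CPM, which rests on 6, 7 and 5 reads. *AaCRC*, a carpel gene in Arabidopsis, had 3.5, 2.45 and 4.21 CPM. Of 5 anther genes only the receptor kinase *AaEMS1* was expressed (5.3 FPKM), *AaTPD1*, *AaDYT1* and *AaAMS* were low, and *AaMS1* had no read.

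The 3 samples were compared for what varied most. Over the 16822 genes with a mean of at least 5 CPM, the range from the lowest to the highest sample had a median of 0.21 on the log2(CPM + 2) scale, and 95% of genes stayed under 0.68. A range of at least 1, a factor of 2, was reached by 332 genes, 1.97% of those examined. The genes at this limit were AALP_AA1G176200 just under it (0.9994) and AALP_AA4G220600 just over it (1.0002). Nearly all of this variation came from sample A. It stood apart from B and C in 305 of the 332 genes (91.9%), against 9245 of all 16822 genes, and was the higher sample in 157 and the lower in 148. Samples B and C differed by a factor of 2 in 9 genes, A and B in 265, and A and C in 261. Without sample A, 8 genes had such a range, without B 260 and without C 271. The biological coefficient of variation, the spread left after counting error, was 14.3% over the 3 samples and 6.02% over B and C.

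**Figure D3:**
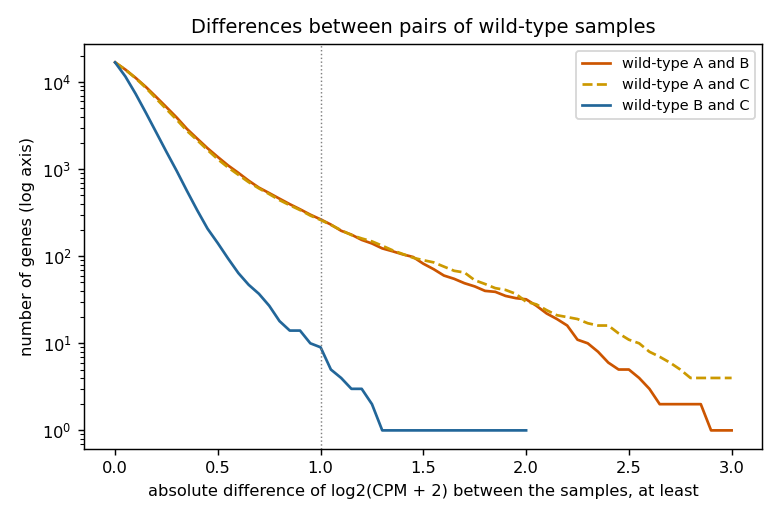
Number of genes (log axis) whose log2(CPM + 2) differs between a pair of wild-type samples by at least the value on the x axis, over 16822 genes. The pair B and C falls off first, with 9 genes at a difference of 1, against 265 for A and B and 261 for A and C.

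Several genes with the largest range were low in sample A, among them *DIN* genes, which are switched on in the dark in Arabidopsis. The genes below were named for their range, and a shared role was not tested. *AaBCAT2* (AALP_AA1G107100), an enzyme of branched-chain amino acid breakdown, had the largest range with 1.75, 37.1 and 47.2 CPM. *AaDIN6*, asparagine synthetase, had 50.6, 385 and 474 CPM, and *AaDIN1* had 5.25, 41.2 and 57.8 CPM. *AaDIN10*, a raffinose synthase-like gene, had 105, 365 and 568 CPM. The proline dehydrogenase ortholog AALP_AA5G064900, whose description in the table names another enzyme family, had 131, 549 and 708 CPM, and a beta-amylase gene, AALP_AA8G394100, had 42.1, 168 and 236 CPM. The myo-inositol oxygenases *AaMIOX2* and *AaMIOX4* had 22.5, 106 and 157 CPM and 6.56, 38.6 and 46.1 CPM. Threonine aldolase 1 had 6.19, 21.8 and 39.2 CPM and a gene for an acyltransferase, AALP_AA1G274300, 49, 252 and 309.5 CPM. The phosphodiesterase-like gene AALP_AA6G322000 had 5.17, 29.7 and 73.4 CPM. In each of these genes sample A lay at least a factor of 3 under sample B.

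Whole families were then read from lists drawn up after these values were seen, so their counts are a description. Of 6 *DIN* genes of at least 5 CPM, 3 had a range of 1 or more and all 6 were lower in sample A than the mean of B and C, with a median of -1.44 on the log2 scale. *AaDIN9* (1.89, 1.88 and 2.11 CPM) and *AaDIN2* (0.583, 0.368 and 0.912 CPM) lay under 5 CPM and did not show this division. Of 8 genes of branched-chain amino acid breakdown, which share *AaDIN3* and *AaDIN4* with the first list, 4 had such a range and 7 were lower in A. Over all 16822 genes of at least 5 CPM, 8206 were lower in A, and the share with such a range was 1.97%.

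The 157 varying genes higher in sample A were of many kinds, among them clock, light-harvesting, metal and sulfur genes. Others were a *GH3* gene of the auxin response, AALP_AA6G045000 (75.8, 16.8 and 18 CPM), nitrate reductase 1, AALP_AA2G220400 (237, 76.7 and 106 CPM), and the cytochrome P450 gene AALP_AA4G203000 (519, 155 and 154.8 CPM). *AaGI*, an evening clock gene (AALP_AA1G248200), had 61.6, 9.04 and 7.3 CPM, and *AaPRR7* had 77, 17.2 and 18.4 CPM. The morning gene *AaLHY* went the other way, with 4.66, 32.8 and 18.2 CPM. Of 15 clock genes of at least 5 CPM, 7 had a range of 1 or more, against 1.97% of all such genes. Of the 7, *AaGI*, *AaPRR7*, *AaPRR5*, *AaCDF3* and *AaFKF1* were highest in A, and *AaLHY* and *AaRVE1* lowest. *AaTOC1* was flat (102, 97.1 and 92.7 CPM). Among light-harvesting genes *AaLHCB1.4* had 1062, 168 and 159.8 CPM and *AaLHCA4* 441, 95.7 and 76.4 CPM, and the range of *AaLHCB2.3* was 2.55. The light-harvesting list was also drawn up after these values were seen. Of its 16 genes of at least 5 CPM, 15 were higher in A and 6 had a range of 1 or more, but *AaLHCB4.1* was flat at 807, 786 and 750.4 CPM. In the photosynthesis list, 36 of 40 genes were higher in A and 3 had such a range. Over all 16822 genes of at least 5 CPM, 8616 were higher in A. The nicotianamine synthases *AaNAS4* and *AaNAS1*, which make a metal chelator, had 78, 12.8 and 19.2 CPM and 26.4, 3.68 and 3.93 CPM.

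Sulfur and glucosinolate genes followed the same division. All 8 sulfur-deficiency genes of at least 5 CPM were higher in sample A and 5 had a range of 1 or more, among them *AaAPR3* of sulfate reduction with 41, 11.5 and 8.7 CPM, *AaSDI2* with 23.8, 3.89 and 4.07 CPM and the transporter *AaSULTR2-1* with 130.1, 41.7 and 54.7 CPM. All 21 aliphatic glucosinolate genes of at least 5 CPM were higher in A, and 8 had such a range. Over all 16822 genes of at least 5 CPM, 8616 were higher in A and 1.97% had such a range. *AaFMOGSOX1* had 45.6, 9.65 and 12.2 CPM and *AaCYP79F1* 55.4, 19.2 and 20.4 CPM, while *AaGSTU20*, the highest of the list at 2053 FPKM, had 1805, 1341 and 1173 CPM. Summed over the 22 genes of the list, wild-type A had 5088 CPM, against 3408 CPM in B and 3039 CPM in C. The 3 *pep2* samples had 7223 to 7589 CPM, *pep1-1* A 5207 CPM and *pep1-1* B and C 2347 and 2385 CPM, so all wild-type samples lay under *pep2* and between the *pep1-1* samples.

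None of 17 meristem, 28 leaf, 26 cell division, 16 vascular or 13 epidermal genes of at least 5 CPM had a range of 1 or more, a share close to the 1.97% of all genes. Their median ranges were 0.15, 0.26, 0.13, 0.28 and 0.19, against 0.21 over all genes. Among the flowering lists the only gene of at least 5 CPM to reach it was *AaTEM1*. What sets sample A apart is not in the labels and was not tested.

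**Figure D4:**
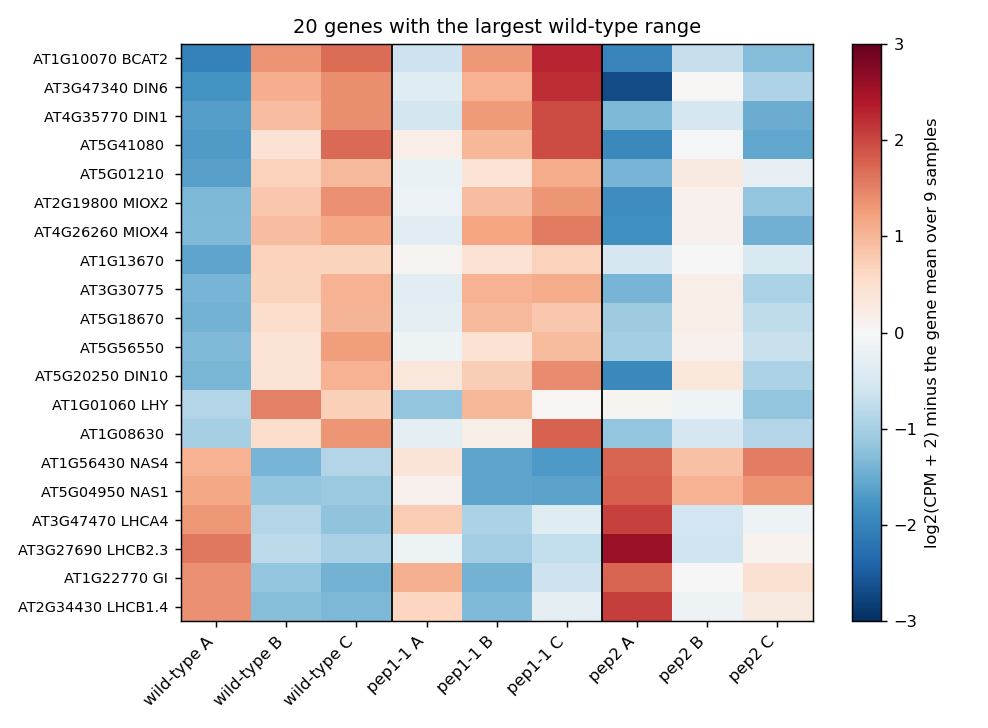
log2(CPM + 2) of the 20 annotated genes with the largest wild-type range, minus the gene's mean over 9 samples (red above it, blue under it), in the samples of the wild type, *pep1-1* and *pep2*. Wild-type A has the opposite colour to wild-type B and C in all 20 genes.

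The mutant samples, which did not enter the choice of these genes, were read for the same division. Of the 332 genes, 176 (53.0%) also had a range of 1 or more in *pep1-1* and 121 (36.4%) in *pep2*, against 338 and 235 of all 16822 genes. Of the 148 genes low in wild-type A, 143 were lower in *pep1-1* A than in the mean of *pep1-1* B and C, and 139 were lower in *pep2* A. Of the 157 genes high in wild-type A, 153 and 136 were higher in A of *pep1-1* and *pep2*. Over all genes the sign was the same as in the wild type for 68.8% to 69.0% for *pep1-1* and 61.1% to 61.2% for *pep2*. *AaGI* had 50.3, 7.28 and 14.1 CPM in *pep1-1* and 80.8, 22.9 and 31.9 CPM in *pep2*, and *AaPRR7* had 58, 20 and 25.5 CPM in *pep1-1* and 130.2, 29 and 39.3 CPM in *pep2*. *AaLHY* was low in A of *pep1-1* (3.45, 22.7 and 10.9 CPM) but not of *pep2* (11, 9.19 and 3.39 CPM), and *AaFKF1* was high in A of *pep1-1* (18.5, 7.57 and 9.06 CPM) and low in A of *pep2* (6.44, 18.9 and 20.6 CPM). Of the 15 clock genes, 13 kept the wild-type sign in *pep1-1* samples, and 9 did in *pep2*. Of the 16 light-harvesting genes, 11 had it in *pep1-1* (median 0.071) and 13 in *pep2* (median 0.67), and of the 40 photosynthesis genes 20 had it in *pep1-1* (median -0.016) and 31 in *pep2* (median 0.26). *AaDIN6* had 140.0, 374 and 851 CPM in *pep1-1* and 26.3, 185 and 94 CPM in *pep2*. The aliphatic glucosinolate genes divided this way in *pep1-1*, where all 21 were higher in A (median 1.75), while in *pep2* 7 of 21 were (median -0.23). The difference between the genotypes was not tested. Across the 16822 genes wild-type A correlated at r = 0.989 with *pep1-1* A and at 0.987, 0.986 and 0.981 with *pep2* C, A and B. Its r was 0.976 with wild-type B and with C, 0.968 with *pep1-1* B and 0.965 with *pep1-1* C. Wild-type B and C correlated at r = 0.994. As deviations from the genotype mean, over the 21713 genes tested, wild-type A correlated at 0.626 with *pep1-1* A and 0.472 with *pep2* A. With B and C it correlated at -0.379 and -0.366 in *pep1-1* and at -0.533 and -0.0363 in *pep2*. The deviations within a genotype cancel, so these values are linked, and what samples of a letter share was not tested. Genes are not independent replicates.

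**Figure D5:**
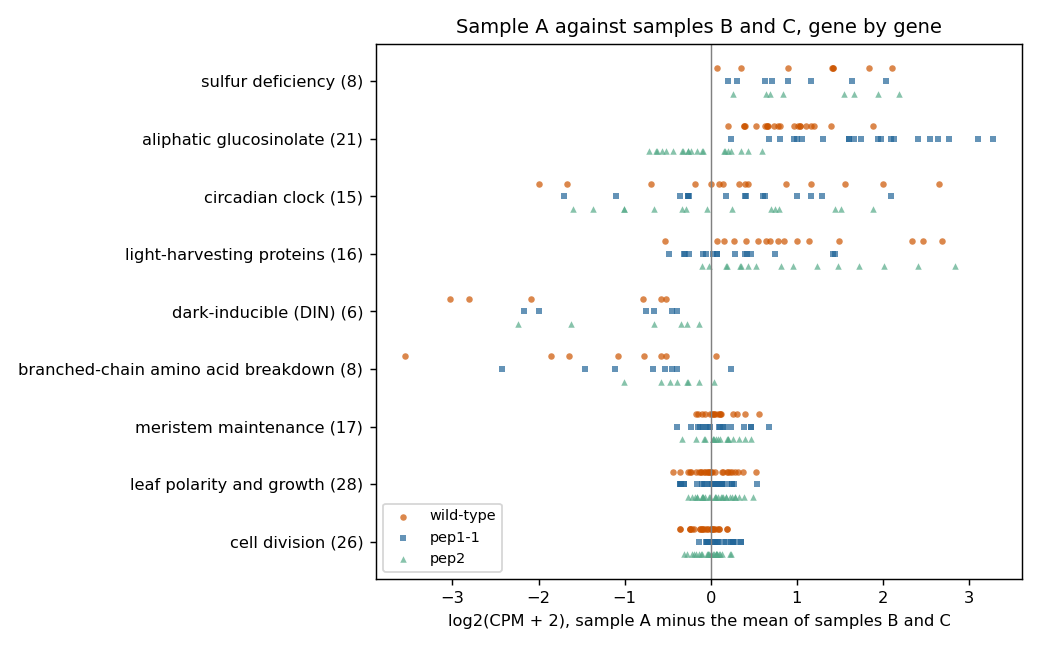
Difference of log2(CPM + 2) between sample A and the mean of samples B and C for each gene of at least 5 CPM, by list (number of genes in brackets), in the wild type (circles), *pep1-1* (squares) and *pep2* (triangles). Sulfur genes lie to the right and dark-inducible genes to the left of 0 in all 3 genotypes, and meristem, leaf and cell division genes lie around 0.

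Finally, the wild-type profile was compared with the 6 mutant samples to see where it stands apart. Of 21713 genes tested, 46 (0.212%) were higher in the wild type than in the mean of *pep1-1* and *pep2* and 15 (0.0691%) were lower. The call needed a 2-fold difference, 1 on the log2 scale, and a Benjamini-Hochberg adjusted p no larger than 0.05 from edgeR. Of the 46, 27 had no ortholog and 33 had a mean under 5 CPM over the 9 samples. The counts were 12 higher and 4 lower without wild-type B, 19 and 7 without wild-type C, 29 and 12 without wild-type A, 29 and 8 without *pep1-1* B, and 27 and 7 without *pep1-1* C. They were 29 and 11 without *pep2* A, 33 and 8 without *pep2* B, and 29 and 9 without *pep2* C. Without samples A of all genotypes the counts were 42 and 19.

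Only 1 gene with an ortholog, at least 5 CPM and no overlap between wild-type and mutant samples was higher, AALP_AA6G069600 (chromosome 6, 4663823 to 4665349), a gene of unknown function. It had 89, 89.1 and 98.3 CPM in the wild type, against 0.135, 0.144 and 0.234 CPM in *pep1-1* and 35.4, 8.57 and 77.1 CPM in *pep2* (log2 fold change 5.11 ± 0.62 SE, edgeR adjusted p = 0.00905). It was almost silent in *pep1-1* and uneven in *pep2*. Under the same conditions 4 genes were lower in the wild type. *AaSOC1* had 1.6, 1.51 and 1.54 CPM in the wild type, against 8.93, 8.08 and 9.37 CPM in *pep1-1* and 6.0, 6.41 and 5.04 CPM in *pep2* (log2 fold change -2.20 ± 0.14 SE, edgeR adjusted p = 0.000349). The acidic ribosomal protein AALP_AA5G054100 had 97.3, 94 and 100.0 CPM, against 148, 136 and 144 CPM and 281, 295 and 294 CPM in *pep1-1* and *pep2* (log2 fold change -1.07 ± 0.060 SE, edgeR adjusted p = 0.000159). The homeodomain-like gene AALP_AA8G380200 had 8.38, 6.75 and 5.33 CPM in the wild type, against 16.5, 13.3 and 14.1 and 15.7, 13.7 and 15 CPM in *pep1-1* and *pep2* (log2 fold change -1.11 ± 0.14 SE, edgeR adjusted p = 0.00983). The acyl-CoA reductase AALP_AA7G205800, of a family that makes wax alcohols, had 11.7, 12.5 and 13.6 CPM, against 32.3, 24.8 and 32.9 CPM and 20, 34.4 and 29.6 CPM in *pep1-1* and *pep2* (log2 fold change -1.20 ± 0.17 SE, edgeR adjusted p = 0.019). AALP_AA8G380200 lost its call without wild-type B or C, and AALP_AA7G205800 when any 1 of the wild-type samples, *pep1-1* C or *pep2* C was left out.

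Of the flowering lists, 2 genes were called, *AaSOC1* and *AaSPL15*, both lower in the wild type, 1 of 15 floral activators and 1 of 8 *SPL* genes tested. *AaSPL15* had 2.04, 2.54 and 2.53 CPM in the wild type, against 11.3, 10.9 and 8.35 CPM in *pep1-1* and 4.67, 2.86 and 2.52 CPM in *pep2*, so it overlapped with *pep2* (log2 fold change -1.30 ± 0.22 SE, edgeR adjusted p = 0.0386). No gene of the floral repressor (14 tested), *AP2*-like (5), floral identity (8) or anther (2) lists was called, nor of the meristem (18), boundary (10), leaf (33), cell division (26), photosynthesis (40) or clock (19) lists. Their median log2 fold changes lay between -0.15 and 0.15, against 0.0011 over all genes tested. The aliphatic glucosinolate list had a median of -0.50 with none of 21 called. Of all 21713 genes tested, 0.212% were called higher and 0.0691% lower. Lists of this size without a call are therefore close to the share of all genes. Because the contrast averages both mutants, a change in only 1 of them is diluted and opposite changes cancel. The lack of a call therefore does not show that a gene is unchanged in each mutant. The paper reports *AaTFL1* and *AaAGL19* as reduced in *pep2*, and *AaSMZ* as changed in opposite directions by the mutations. Each mutant alone was not tested against the wild type here.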

How the data were processed

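Shoot apices in 9 samples, 3 each of wild type, *pep1-1* and *pep2*, were sequenced from 1 end in reads of 100 bases. The authors used TopHat with its defaults against the reference genome of *A. alpina*; its build and annotation, and whether strand was used, are not given in the sources here. The deposited estimated counts per gene and library are headed raw reads by the authors, are fractional in 64 genes, and were rounded to whole numbers. The deposited FPKM was computed by the authors with Cuffdiff over the 3 wild-type libraries and was used as their value. A further 18 columns of per-library values (FPKM and scaled reads) were not used, so the level classes planned on them rest on the pooled FPKM. The columns of log2 fold changes, p-values and q-values hold the study's own comparisons and were not used, nor were 6 other sheets.

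Samples were grouped by their genotype label. Genes were tested in edgeR 4.0.16 (R 4.3.3, limma 3.58.1) by the quasi-likelihood test, with all 9 libraries in 1 model, TMM factors and filterByExpr (minimum count 10, total 15), as wild type minus the mean of both mutants. The script recovered changes put into simulated counts. Ranges among the wild-type libraries used log2(CPM + 2) of genes with a mean of at least 5 CPM and carry no test. Of 478 listed Arabidopsis genes in 28 lists, 430 were matched by the table's ortholog column. Depth was 12871903 to 23829973 reads in genes. Named genes were the 20 highest with an ortholog, up to 5 leading members of each list and silent members of the meristem, leaf and flowering lists, the 20 most variable, called genes without overlap, and flowering genes of the study. Other members were named after their values were seen, as were the keyword groups. The members and lists were chosen with earlier results of these data known. Alternatives were DESeq2 1.42.0, other scalings, filters and pseudocounts, a replicate block and leaving out each library. The p-values weigh the genotype difference against the spread among samples within genotypes, estimated over all 9 libraries together.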

Additional observations from a re-analysis of the deposited data

How the results depend on the processing

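The 20770 expressed genes numbered 19168 to 21936 under other thresholds and 20701 to 20798 with a wild-type sample left out. Ranked by CPM in place of FPKM, 23 of the 50 highest genes were shared, and leaving out a sample kept 49 to 50. Of varying genes there were 192 at a mean of at least 20 CPM, 320 to 424 under the other settings, and 8 to 271 with a wild-type sample left out, where sample A decides the count. Against the mutants, the 46 higher and 15 lower genes became 67 and 19 with DESeq2's Wald test, 45 and 15 with its size factors, 47 and 14 without the filter, and 42 and 19 without samples A of all genotypes, an alternative chosen after seeing the data. Leaving out each sample in turn gave 12 to 41 higher and 4 to 13 lower genes, and the cause was not tested. A replicate block by letter gave 52 and 16. The labels do not say whether samples of a letter share an origin. Of the same-letter pairs, 6 of 9 deviated together at a correlation over 0.1 (range -0.027 to 0.626). The A pairs were at 0.626, 0.472 and 0.312. The B pairs were at 0.385, 0.388 and 0.0769, and the C pairs at 0.319, 0.0138 and -0.0273. Some pairs of different letters also deviated together, at 0.426 for wild-type C and *pep2* B and 0.387 for *pep1-1* C and *pep2* B. Wild-type B and *pep1-1* C were at 0.24, wild-type C and *pep1-1* B at 0.19, and the rest from -0.533 to 0.0412. No named fold change reversed. The deposited FPKM per library in place of CPM was not run. With 3 samples per group low genes such as *AaWUS* or *AaFT* rest on few or no reads, and FPKM of very short or long gene models is uncertain.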

Other observations

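Hormone and stress genes outside the comparisons were also read. All 17 cytokinin genes in the table were expressed, led by the response regulators *AaARR4* (94.7 FPKM), *AaARR9* (81.8 FPKM) and *AaARR5* (63.8 FPKM), and the receptor *AaAHK4* had 19.6 FPKM. Among gibberellin genes the growth repressors *AaRGA* (110.1 FPKM) and *AaGAI* (55.4 FPKM) stood above the receptor *AaGID1A* (28.5 FPKM) and the biosynthetic enzymes *AaGA20ox2* (11.6 FPKM) and *AaGA3ox1* (8.19 FPKM). The jasmonate-responsive *AaVSP2* reached 450.3 FPKM, with 300.2, 550.3 and 374 CPM, and the cold- and drought-responsive *AaKIN2* 749.6 FPKM, with 233, 239 and 205 CPM. Each was the highest of its list. Of 9 jasmonate genes 8 were expressed (median 23.6 FPKM). Of 9 cold and drought genes 4 were expressed and 3 had no read (median 0.114 FPKM). Of 9 salicylic acid genes 7 were expressed (median 9.72 FPKM), and the marker *AaPR1* was the lowest of the list at 0.374 FPKM. Of 8 listed heat-inducible genes, *AaHSP101* (40.3 FPKM) and *AaHSP18-2* (2.2 FPKM) were expressed, 3 were low, 2 near silent and 1 had no read. By description, 68 of 81 heat shock proteins were expressed, up to 1578 FPKM for heat shock cognate protein 70-1 (AALP_AA8G018100). In flavonoid synthesis the early enzymes *AaF3H* (29.7 FPKM) and *AaCHS* (21.3 FPKM) were expressed, while *AaDFR* (0.0419 FPKM), an enzyme of the anthocyanin branch, was near silent and *AaBAN* had no read.

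Some of the highest genes had no ortholog in the table. AALP_AA1G306700 (chromosome 1, 21228908 to 21229975) had 1951 FPKM and 3124, 1008 and 1002 CPM, high in sample A, and lies beside *AaLHCB1.3* (AALP_AA1G306800, chromosome 1, 21232010 to 21233014), which had 4216, 2739 and 2502 CPM. AALP_AA5G105600 (chromosome 5, 7884101 to 7884939) had 1938 FPKM and 1208, 954 and 1045 CPM. At the other end, AALP_AA8G305100 had no read in the wild-type samples, against 3.31, 8.58 and 7.42 CPM in *pep1-1* and 1.33, 2.16 and 0.473 CPM in *pep2*.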
